A study of Rattus norvegicus with 36 samples.

Results

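The transcript levels of 5 genes that define the thyroid follicular cell were examined across 36 rats: the transcription factors Pax8, Nkx2-1, Foxe1 and Hhex, and the receptor Tshr. The members were all probes that are not controls and whose transcript identifier maps to 1 of these symbols, which gave 7 of the 30367 probes of the array. Pax8, Foxe1 and Hhex had 1 probe each, and Nkx2-1 and Tshr had 2 each.

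Thyroid follicular cells make, store and release thyroid hormone. Pax8, a paired-box factor, and Nkx2-1, a homeobox factor, bind together at the promoters of the hormone-making genes, while the forkhead factor Foxe1 and the homeobox factor Hhex complete the set of factors on which the gland depends during development. Tshr encodes the receptor for thyroid-stimulating hormone (TSH), which couples to cAMP signalling in the follicular cell. None of the 5 genes is exclusive to that cell. Nkx2-1 is known from lung and forebrain, Pax8 from kidney, Foxe1 from the oral and pharyngeal epithelium, Hhex from liver, blood and endothelial precursors, and Tshr from adipose tissue.

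The rats were adult male Sprague Dawley animals given 131I, the iodine isotope that the thyroid concentrates, through the tail vein. There were 8 irradiated groups, each of 4 rats, and a mock-treated group of 4 without activity (0 kBq). The activities were 9, 88, 170 and 260 kBq in the lower range, 340 and 760 kBq in the middle, and 1300 and 4700 kBq at the upper end. Thyroids were removed 24 h after injection, and total RNA from each rat was hybridized to 1 single-colour array. Groups were injected in ascending order of activity and the controls last, so activity and order of injection cannot be told apart.

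Levels are given as log2 signal relative to the 75th percentile of the same array, so that 0 is the signal which 75% of the probes do not exceed. They can be compared between rats for 1 probe and not between probes. The 75th percentile was 1564 to 4288 intensity units, and 62.6% to 90.7% of the probes were well above background on an array by the scanner software's own call. The highest share belonged to rat 4 of the 340 kBq group. No probe was saturated, and the arrays lay on 5 slides that each held 4 to 6 of the groups.

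The arrays differed strongly in the signal of follicular cell markers, and this bears on all values below. The mean of 8 follicular cell markers (among them Tg, Slc5a5, Iyd, Duox2 and Dio1) ranged from -6.44 to 1.91. Its largest gap, between -1.12 and 0.51, separated 18 arrays from the other 18. Rat 1 at 760 kBq, at -1.12, was the highest of the lower arrays. The next below it, rat 1 at 88 kBq, was at -2.68, a gap nearly as wide, so this rat stood apart from both sides. The upper arrays were those of 3 controls, 1 rat at 9 kBq, 2 rats each at 88, 170, 260, 760 and 1300 kBq, 1 rat at 340 kBq and 3 rats at 4700 kBq. On the lower arrays, Tg and Duox2 were well above background in 18 of 18 rats, Dio1 in 17, Slc5a5 and Duoxa2 in 11 and Iyd in 4. The labelled tissue thus had its defining markers on the 18 upper arrays, and on the lower arrays several of them were below background. Slc26a4, also in the list, was well above background on 1 of the 36 arrays and carried little information.

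Other tissues were present on the same arrays. The mean of the fast muscle markers lay between 6.11 and 7.39 on the lower arrays and between -3.90 and 6.81 on the upper ones, and 7 of the 7 with a probe were well above background on at least 18 arrays. The squamous epithelium markers ranged from -4.82 to 6.12 on the lower and from -5.47 to 2.52 on the upper arrays. For the C cell markers, the lower arrays lay between -5.95 and -2.94 and the upper ones between -0.42 and 2.25, without overlap. Endothelial markers varied least, from -2.26 to -0.80 over all arrays. In whole tissue, fewer cells of a type and less RNA per cell cannot be told apart.

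The promoters of the factors are shown because 2 of them, Pax8 and Nkx2-1, rose and fell together across the rats as described below. The sequences are the 250 bases before the RefSeq start of each gene in the GRCr8 build, read 5′ to 3′ on the gene's strand, and the table used held entries for Pax8, Nkx2-1 and Hhex and not for Foxe1 and Tshr. They lie at chr3:27640632-27640881, minus strand, for Pax8, chr6:79734868-79735117, minus strand, for Nkx2-1 and chr1:244602695-244602944, plus strand, for Hhex. Iyd, the iodotyrosine deiodinase that recovers iodide within the cell, is added because it was the only target gene of the list among the 5 genes most like Pax8 and most like Nkx2-1 across the arrays (chr1:42409888-42410137, plus strand). Capitals mark a match to a motif.
Pax8: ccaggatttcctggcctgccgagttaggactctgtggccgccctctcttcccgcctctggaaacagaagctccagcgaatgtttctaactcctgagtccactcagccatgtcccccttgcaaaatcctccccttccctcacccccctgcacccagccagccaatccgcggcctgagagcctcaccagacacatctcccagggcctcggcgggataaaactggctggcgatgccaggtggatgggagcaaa
Nkx2-1: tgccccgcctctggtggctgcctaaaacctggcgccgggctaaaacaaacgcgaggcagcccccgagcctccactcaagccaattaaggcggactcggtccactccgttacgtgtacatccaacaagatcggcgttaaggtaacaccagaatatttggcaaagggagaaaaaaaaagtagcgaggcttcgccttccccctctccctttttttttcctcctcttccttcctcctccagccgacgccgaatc
Hhex: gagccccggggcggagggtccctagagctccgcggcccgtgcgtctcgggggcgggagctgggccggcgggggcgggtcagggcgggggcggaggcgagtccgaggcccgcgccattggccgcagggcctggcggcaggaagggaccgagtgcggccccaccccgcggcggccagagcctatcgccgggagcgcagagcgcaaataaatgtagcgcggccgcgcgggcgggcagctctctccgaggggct
Iyd: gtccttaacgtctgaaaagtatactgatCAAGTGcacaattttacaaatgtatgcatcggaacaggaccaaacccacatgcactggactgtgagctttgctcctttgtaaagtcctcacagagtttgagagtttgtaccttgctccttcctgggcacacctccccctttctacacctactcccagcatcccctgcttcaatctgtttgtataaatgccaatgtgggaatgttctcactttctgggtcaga

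Both strands were searched for CAAGTG, the core bound by homeodomain proteins of the NK2 class to which Nkx2-1 belongs, for GTAAACA, a forkhead site, and for TGACGTCA, the cAMP response element. The 3 promoters of the factors held none of these letters, and that of Iyd held CAAGTG at position -222, counted from the start. It was the only one of the 7 target gene promoters in the table with any of the motifs. Among 27457 promoters of the same length, 11.7% held CAAGTG, 3.25% GTAAACA and 1.7% TGACGTCA on either strand. G and C made up 78.4% of the bases before Hhex, 60.8% of those before Pax8 and 55.2% of those before Nkx2-1.

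Pax8 showed the widest range of the 5 genes, from -7.51 to 4.28 over the 36 rats. In the controls, rats 1 to 4 had Pax8 levels of 2.97, 1.79, -5.0 and 4.28. At 9 kBq they were -6.27, 2.28, -5.66 and -5.77, at 88 kBq -2.60, -5.63, 3.09 and 2.90 and at 170 kBq 2.09, 3.02, -4.80 and -5.14. Each of these groups held both high and low rats, with none between -2.60 and 1.79. Rat 1 at 88 kBq, at -2.60, stood above the other low rats of these groups, which lay at -4.80 or lower. At 260 kBq the levels of Pax8 were 3.12, 3.08, -2.30 and -6.12, at 340 kBq -6.62, -7.11, -5.97 and 2.54 and at 760 kBq -0.98, -5.76, 3.40 and 3.46. At 1300 kBq they were -7.51, -5.51, 2.72 and 2.90, and at 4700 kBq 2.77, 3.31, -4.43 and 2.53. The control with the lowest level, rat 3, lay within the range of the low irradiated rats, and every irradiated group overlapped the controls. The signal was well above background in 33 of the 36 rats, and the exceptions were rats 1 and 2 at 340 kBq and rat 1 at 1300 kBq. No rat lay between -0.98 and 1.79.

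Nkx2-1 followed Pax8 rat by rat. Its brighter probe (A_42_P563276) gave 2.56, 1.70, -5.06 and 3.33 in the controls, -5.39, 2.13, -6.08 and -6.53 at 9 kBq and -2.75, -6.45, 2.88 and 2.57 at 88 kBq. It gave 1.93, 2.73, -4.67 and -5.83 at 170 kBq, 2.83, 3.08, -2.20 and -5.79 at 260 kBq and -5.94, -4.29, -6.13 and 2.36 at 340 kBq. At 760 kBq the levels were -1.17, -6.40, 3.18 and 2.90, at 1300 kBq -5.32, -5.17, 2.60 and 2.71 and at 4700 kBq 2.64, 3.16, -4.36 and 2.41. The same rats were high and low as for Pax8, and the gap between them ran from -1.17 to 1.70. The signal was well above background in 35 of the 36 rats, all but rat 4 at 9 kBq. The dimmer probe of Nkx2-1 (A_64_P097669) was well above background in 18 of 18 upper and 1 of 18 lower arrays. It lay 3.59 to 4.11 below the brighter probe on the upper arrays and 2.11 to 4.40 below it on the lower ones, so the probes disagreed mainly where the dimmer one was not above background.

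Tshr, the receptor, was well above background in all 36 rats at its brighter probe (A_64_P065852) and in 34 at the other (A_64_P065857). Its levels were 2.63, 0.90, -3.12 and 2.93 in the controls, -2.18, 1.39, -4.29 and -4.03 at 9 kBq and -3.07, -3.95, 2.71 and 1.97 at 88 kBq. At 170 kBq they were 1.94, 2.26, -1.39 and -4.70, at 260 kBq 2.28, 2.78, -1.75 and -3.05 and at 340 kBq -2.57, -1.85, -3.59 and 1.60. At 760 kBq Tshr gave -1.82, -3.43, 3.25 and 1.88, at 1300 kBq -4.65, -1.33, 1.64 and 2.15 and at 4700 kBq 1.71, 2.57, -2.08 and 2.0. The low rats of Tshr were spread over a range from -4.70 to -1.33, and the high rats over one from 0.90 to 3.25. Within the low rats their order differed from that of Pax8: rat 2 at 1300 kBq and rat 3 at 170 kBq were the highest of the low rats for Tshr, while both lay below -4 for Pax8.

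Hhex was well above background in all 36 rats. It was 4.13, 1.85, -2.26 and 3.76 in the controls, -1.78, 3.07, -2.5 and -2.49 at 9 kBq and -1.78, -2.40, 3.79 and 3.21 at 88 kBq. At 170 kBq the levels of Hhex were 0.86, 2.46, -2.0 and -3.08, at 260 kBq 2.05, 4.05, -2.31 and -1.81 and at 340 kBq -1.85, -2.14, -3.09 and 1.09. At 760 kBq they were -1.42, -2.49, 2.61 and 2.40, at 1300 kBq -3.02, -2.18, 1.09 and 1.61 and at 4700 kBq 2.84, 2.80, -2.23 and 3.84. The high rats of Hhex were spread more widely than those of the other genes, from 0.86 to 4.13, and the low rats less widely than those of Pax8, from -3.09 to -1.42.

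Foxe1 varied least. It was well above background in all 36 rats, with levels of 2.60, 1.79, -0.24 and 2.80 in the controls, -0.20, 2.05, 0.99 and 0.55 at 9 kBq and -1.39, 1.09, 3.53 and 2.06 at 88 kBq. At 170 kBq Foxe1 gave 2.09, 2.58, 0.71 and 1.16, at 260 kBq 2.73, 3.11, 0.22 and 0.04 and at 340 kBq 0.58, 0.00, 0.91 and 2.24. At 760 kBq it gave 0.59, 0.5, 3.33 and 3.52, at 1300 kBq 0.17, 0.41, 2.61 and 2.46 and at 4700 kBq 2.33, 3.67, 0.72 and 2.58. The whole range was 5.05, against 11.8 for Pax8, and 17 of the 18 low rats lay between -0.24 and 1.16. Rat 1 at 88 kBq, at -1.39, stood 1.15 below the next. The range of Foxe1 was still wider than that of most probes, since 15% of all probes with a value on every array had a wider one. For Pax8 the share of probes with a wider range was 0.426%.

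**Figure D1:**
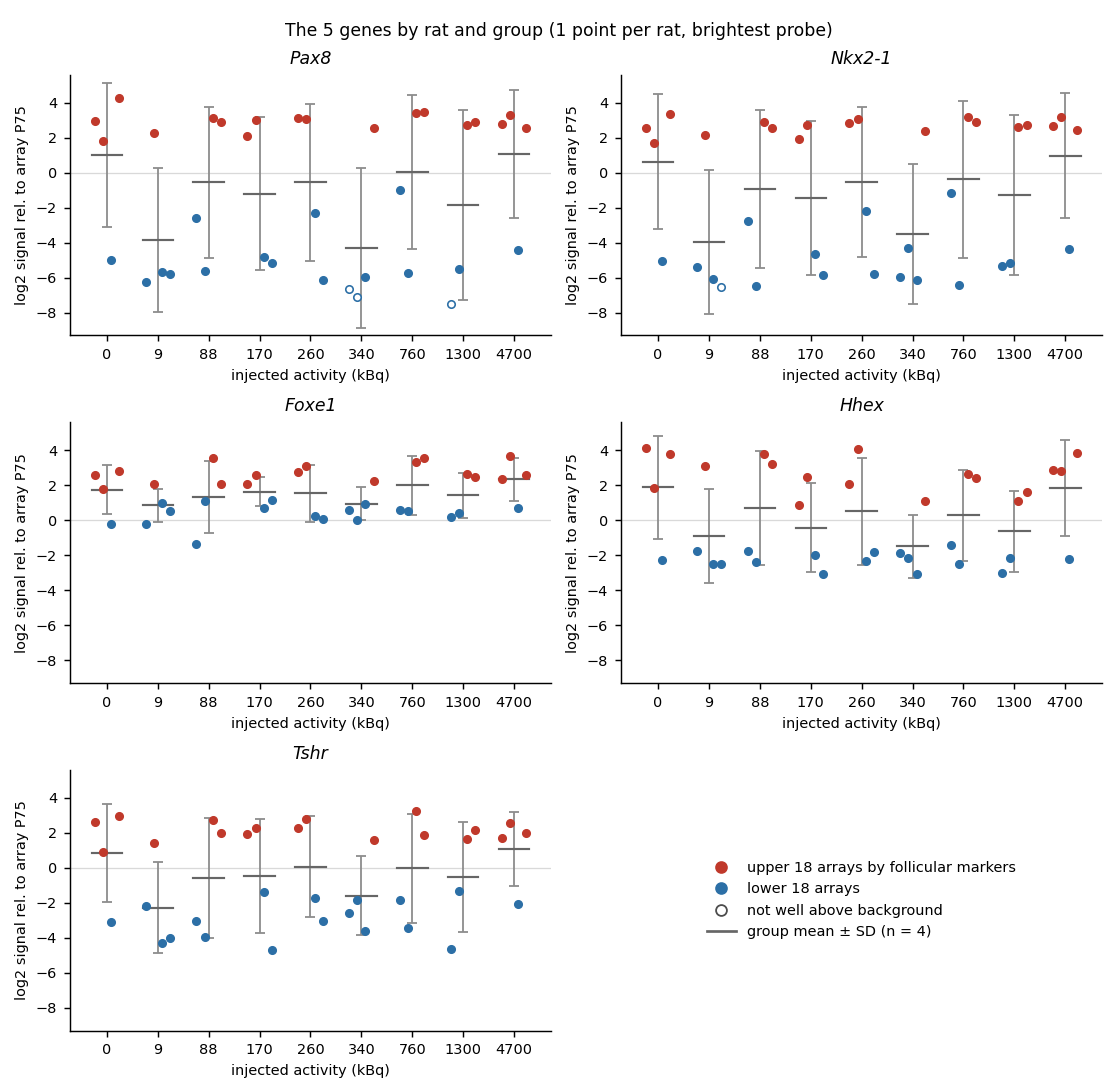
Level of each gene in every rat by injected activity, as log2 signal relative to the 75th percentile of the array, with the group mean and SD of 4 rats. All groups hold high and low rats, the low rats reach -7.51 for Pax8 and -1.39 for Foxe1, colours give the 18 upper (red) and 18 lower (blue) arrays by the follicular cell markers, and open points were not well above background.

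The rats that were high for 1 gene were high for all. The 18 arrays that were upper by the follicular markers, a list without any of the 5 genes, held the 18 highest values at each of the 7 probes, and no upper array overlapped a lower one. Of the 30268 probes with a value on every array, 3.41% had all 18 upper arrays above all lower ones and 0.671% had them all below. The step between the lowest upper and the highest lower rat was 2.87 for Nkx2-1, 2.77 for Pax8, 2.29 for Hhex, 2.23 for Tshr and 0.63 for Foxe1. These values describe the arrays, which were separated by a measured quantity and are not groups of the study, and the part of the other tissues in the separation was not tested.

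**Figure D2:**
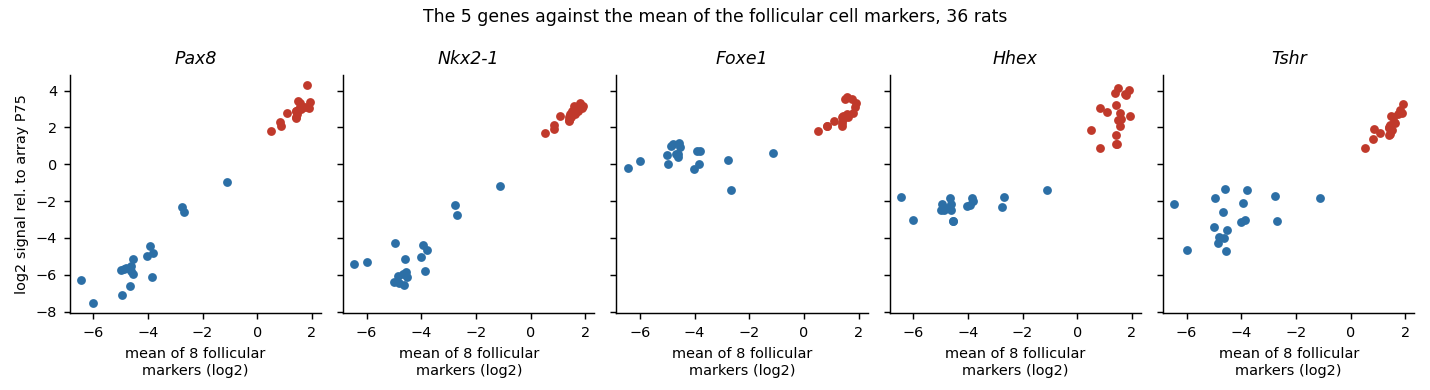
Level of each gene against the mean of the 8 follicular cell markers in 36 rats, both as log2 signal relative to the 75th percentile, with the upper arrays in red and the lower in blue. The gap in the follicular mean between -1.12 and 0.51 also separates the rats for every gene, with the smallest step (0.63) for Foxe1.

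Whether activity changed the 5 genes was asked by comparing each irradiated group with the controls. None of the 7 probes passed the limits of the study, which ask for an adjusted p below 0.01 together with a change of 1.5-fold or more, in any of the 8 comparisons. The share of all probes past these limits was 0% in each of the 8 comparisons (limma, Benjamini-Hochberg). At an unadjusted p under 0.05 the number of member probes was 0 in every group, while the share of all probes was 3.22% at 9 kBq, 3.36% at 88 kBq, 2.36% at 170 kBq, 1.12% at 260 kBq, 13.7% at 340 kBq, 1.64% at 760 kBq, 4.18% at 1300 kBq and 1.66% at 4700 kBq. The smallest adjusted p of a member in limma was 0.431, for Hhex at 340 kBq (unadjusted 0.0761). The study's own analysis used other software. At the same limits it reported Pax8, Nkx2-1, Hhex and Tshr as lower at 9 and 340 kBq, and Hhex also at 170 and 1300 kBq.

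The means nevertheless lay below the controls in most groups. All 7 probes had a negative log2 ratio at 9, 88, 170, 260, 340 and 1300 kBq, 6 of 7 at 760 kBq and 2 of 7 at 4700 kBq. Among all probes the share with a negative log2 ratio was 42.9% at 9 kBq, 39.4% at 88 kBq, 35.4% at 170 kBq, 44% at 260 kBq, 29.8% at 340 kBq, 39.9% at 760 kBq, 32.4% at 1300 kBq and 38.2% at 4700 kBq. The 7 probes share rats and controls, so their directions are not independent. The median log2 ratio of all probes was 0.31 at 340 kBq, 0.22 at 1300 kBq and 0.12 at 170 kBq, and within 0.1 of 0 in the other groups.

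For Pax8 the group mean was 1.01 ± 4.13 (SD, n = 4) in the controls, -3.85 ± 4.10 at 9 kBq and -4.29 ± 4.58 at 340 kBq. Against the controls this gave log2 ratios of -4.87 and -5.30 (SE 2.99), and the two-sided exact permutation test gave p = 0.0857 for both, where 0.0286 is the smallest p that 4 against 4 rats allow. The means at 9 and 340 kBq were the lowest of Pax8, and in both groups 3 of 4 rats lay on lower arrays, against 1 of 4 controls. At 4700 kBq, with 1 rat of 4 on a lower array as in the controls, the mean was 1.04 ± 3.66 and the log2 ratio 0.03. The other 5 groups, with 2 rats of 4 on lower arrays, had Pax8 ratios from -2.86 to -0.98. Upper and lower arrays do not overlap for Pax8, and the order of the group means went with the number of rats on lower arrays. The arrays were split by markers that move with Pax8, and the cause of these differences was not tested. Neighbours in the order of the group means differed by less than their SD.

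Nkx2-1 had its lowest means in the same groups, -3.97 ± 4.09 at 9 kBq and -3.50 ± 3.99 at 340 kBq, against 0.63 ± 3.86 in the controls. Its log2 ratios were -4.60 and -4.13 (SE 2.86), with exact permutation p = 0.114 and 0.171. Tshr gave -3.11 and -2.44 (SE 1.95), with exact p = 0.143 and 0.257. For Foxe1 the ratios at these activities were -0.89 and -0.81 (SE 0.95), with exact p = 0.371 for both. Foxe1 was the only one of the 5 genes whose ratio was above 0 at 760 kBq, at 0.25, and its highest group mean, 2.32 ± 1.22, was that at 4700 kBq.

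Markers of other cell types also lay apart from the controls in these groups. At 9 and 340 kBq the median log2 ratio was -1.68 and -3.14 for the C cell markers, -3.10 and -2.52 for the parathyroid markers and -2.29 and -1.05 for those of simple epithelium, with all measured markers of the 3 lists lower in both groups. For the squamous epithelium markers it was 2.85 and 2.22, with 6 of 6 higher in both. At 4700 kBq, where Pax8 was level with the controls, these medians were 0.18, 3.05, -0.38 and -2.84. Such shifts were not confined to 9 and 340 kBq. The squamous median was 4.40 at 260 kBq and 2.88 at 760 kBq, with 6 of 6 higher in each and Pax8 ratios of -1.57 and -0.98. At 88, 170 and 1300 kBq the squamous median was 0.29, -0.44 and -0.58. For simple epithelium the medians of the other groups ran from -2.26 at 1300 kBq to 0.11 at 88 kBq. None of these markers passed the limits, and their part in the values of the 5 genes was not tested.

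Hhex had its lowest ratios in 4 groups. Its ratio was -3.37 at 340 kBq, -2.79 at 9 kBq, -2.50 at 1300 kBq and -2.31 at 170 kBq (SE 1.83), with exact permutation p = 0.114, 0.2, 0.2 and 0.257. The mean of Hhex was 1.87 ± 2.93 in the controls, -0.63 ± 2.32 at 1300 kBq and -0.44 ± 2.55 at 170 kBq. In the 1300 and 170 kBq groups 2 of 4 rats lay on upper arrays, while the 3 upper controls had Hhex levels of 1.85 to 4.13. The upper rats at 1300 kBq, at 1.09 and 1.61, lay below all 3, and of those at 170 kBq rat 1 did (0.86) and rat 2 did not (2.46).

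A fit restricted to the 18 upper arrays, chosen with the values already known, showed what remained of the ratios there. For Pax8 they ranged from -0.73 at 9 kBq to 0.41 at 760 kBq, for Nkx2-1 from -0.40 to 0.51 and for Tshr from -0.77 to 0.41. Foxe1 ranged from -0.35 at 9 kBq to 1.03 at 760 kBq (SE 0.48). Hhex kept lower values at 340 kBq (-2.16, SE 0.94), 1300 kBq (-1.90, SE 0.75) and 170 kBq (-1.58, SE 0.75), and lay between -0.74 and 0.26 in the other groups. The value at 340 kBq rests on rat 4 alone, and that at 9 kBq on rat 2 alone, with the lone rat taken to vary like the others. These arrays were selected by a quantity that moves with the 5 genes, so the values are given without a test.

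**Figure D3:**
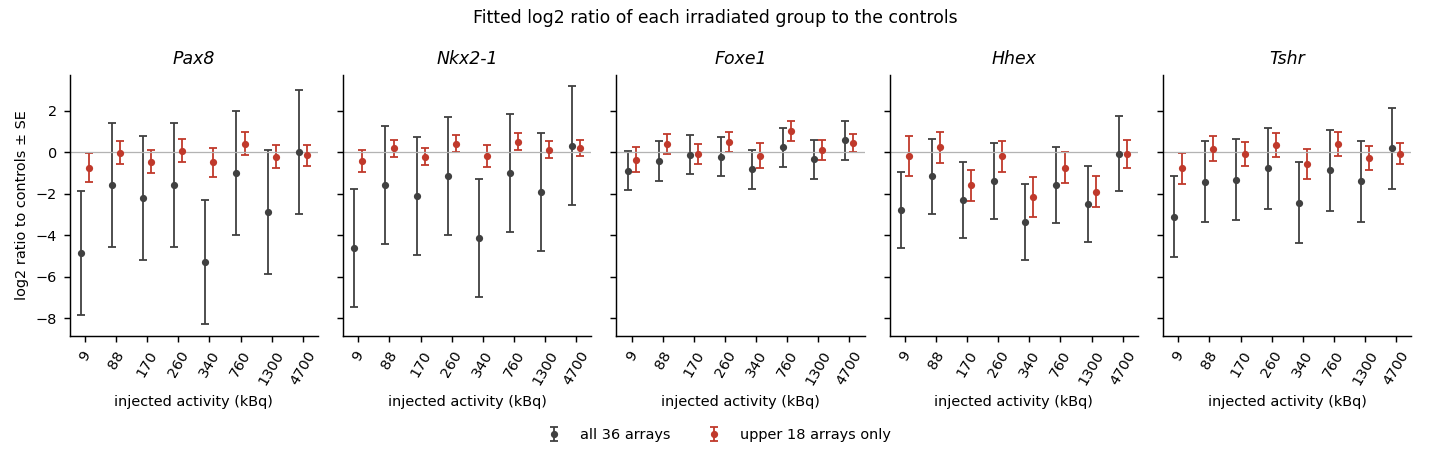
Fitted log2 ratio of each irradiated group to the controls with its standard error, from all 36 arrays (grey) and from the 18 upper arrays only (red). With all arrays the lowest ratios are those of Pax8 at 9 and 340 kBq (-4.87 and -5.30), and on the upper arrays only Hhex at 170, 340 and 1300 kBq lies below -1.

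Slides could be compared only with few rats. A slide that held a control also held rats of an irradiated group for 2 or 3 slides a group, and at 88 kBq for none. For Pax8 the difference within slides was -8.74 to 2.64 over 3 slides at 9 kBq, with 2 of 3 negative, and -8.91 and -5.01 on the 2 slides at 340 kBq. Hhex gave -4.51 and -3.99 at 340 kBq and -3.83 and -0.19 at 170 kBq. With the slide as a block, Pax8 at 88 kBq went from -1.57 to 0.20 and Nkx2-1 from -1.57 to 0.12.

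The ratio of 2 genes on the same array does not depend on the scaling of that array by a constant. The ratio of Pax8 to Nkx2-1 was the most even on the upper arrays, between 0.00 and 0.95, and had a spread (pooled SD within groups) of 0.69, while the single genes had spreads of 4.41 and 4.20. In the controls the log2 ratio was 0.41, 0.09, 0.07 and 0.95, at 9 kBq -0.88, 0.16, 0.43 and 0.76 and at 340 kBq -0.67, -2.82, 0.16 and 0.18. On the lower arrays it ranged from -2.82 to 0.82, and its lowest value was that of rat 2 at 340 kBq, where Pax8 was not well above background. By this spread within groups Hhex to Tshr came next, at 0.80, with a range from -1.07 to 1.84 that was similar on upper and lower arrays. On the upper arrays alone it was less even than other pairs, with a range of 2.91 against 1.09 for Nkx2-1 to Tshr.

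Foxe1 differed by less between upper and lower arrays than the others did, so that its ratio to them shifted. The log2 ratio of Pax8 to Foxe1 was 0.37, 0.00, -4.76 and 1.47 in the controls, -6.08, 0.23, -6.64 and -6.32 at 9 kBq and -7.19, -7.11, -6.89 and 0.30 at 340 kBq. It was -0.44 or higher on each upper and -1.21 or lower on each lower array. Nkx2-1 to Foxe1 ranged from -7.54 to 0.53, and Foxe1 to Tshr from -0.13 to 5.86, again without overlap between upper and lower arrays. Relative to Foxe1, every lower array thus had less Pax8, Nkx2-1 and Tshr than any upper array, while for Hhex the ranges overlapped (Foxe1 to Hhex, -1.53 to 1.51 on the upper and 0.39 to 4.24 on the lower arrays).

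Across the 80 tests of 10 gene pairs in 8 groups, 0 passed an adjusted p of 0.05 and 1 had an unadjusted exact p under 0.05, Hhex to Tshr at 340 kBq. Its values were 1.5, 0.95, 0.85 and 0.82 in the controls and 0.72, -0.29, 0.5 and -0.51 at 340 kBq. All 4 irradiated rats lay below all 4 controls, with means of 0.10 ± 0.60 and 1.03 ± 0.32 (SD, n = 4), and the two-sided exact permutation test gave p = 0.0286, the smallest it allows, and 0.739 after adjustment. At 170 kBq the ratio of Hhex to Tshr was -1.07, 0.20, -0.61 and 1.62, and at 1300 kBq 1.63, -0.86, -0.55 and -0.55, and both groups overlapped the controls. With the other probe of Tshr, no pair of the 80 had an unadjusted exact p under 0.05.

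**Figure D4:**
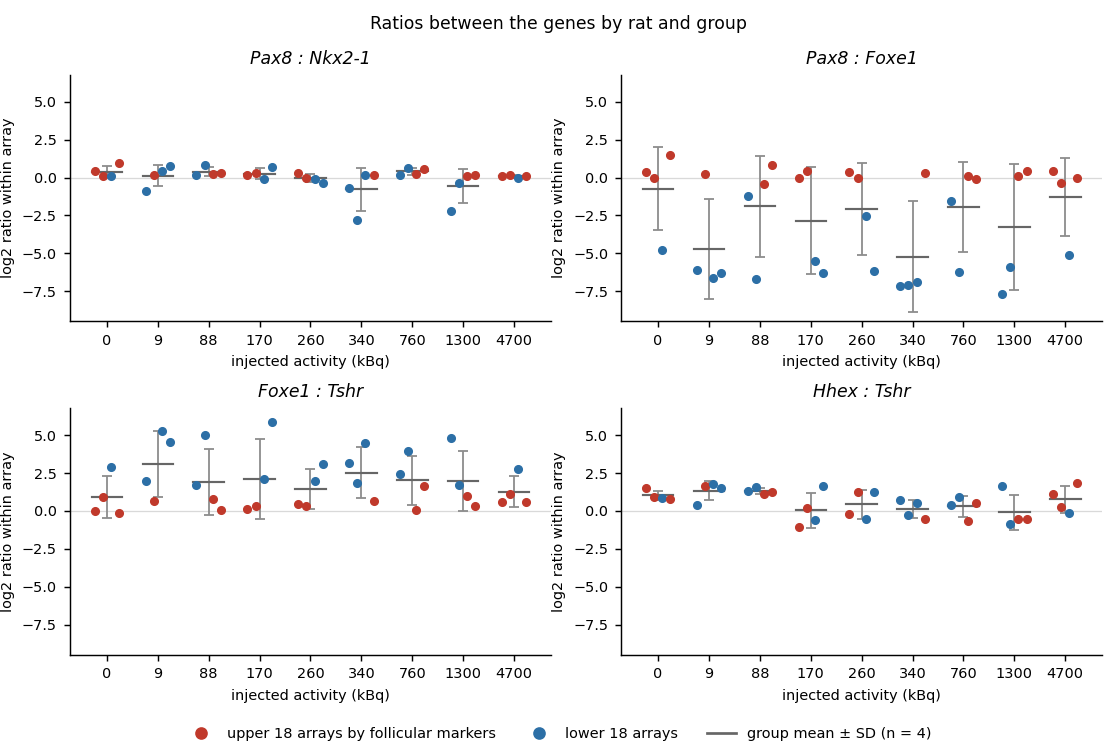
Log2 ratio of 4 gene pairs on the same array in every rat by injected activity, with the group mean and SD of 4 rats. Pax8 to Foxe1 and Foxe1 to Tshr separate upper (red) from lower (blue) arrays without overlap, while Pax8 to Nkx2-1 stays between 0.00 and 0.95 on the upper arrays and Hhex to Tshr ranges from -1.07 to 1.84 on the upper and from -0.86 to 1.78 on the lower arrays.

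Because the follicular markers split the rats into 2 clusters, relations between genes were computed within the 18 upper and the 18 lower arrays. There were 150 in all for 10 gene pairs and 13 marker lists, with permutation p-values adjusted together. Rats of several activities enter each cluster. A slide held at most 5 arrays of a cluster, too few for a value within slides. Of the 150 relations, 21 passed an adjusted p of 0.05 for Pearson's r.

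On the upper arrays, Pax8, Nkx2-1, Foxe1 and Tshr varied together. Pax8 and Nkx2-1 had r = 0.94 and rho = 0.95 (permutation p = 1e-05 for both, the smallest possible, adjusted 0.0005 and 0.000643). Nkx2-1 and Tshr had r = 0.83 and rho = 0.77 (permutation p = 3e-05 and 0.0003, adjusted 0.000643 and 0.0045). Pax8 and Tshr had r = 0.77 and rho = 0.76 (adjusted permutation p = 0.00383 and 0.00586). Foxe1 had r = 0.80 and rho = 0.86 with Nkx2-1, r = 0.69 and rho = 0.86 with Pax8, and r = 0.70 and rho = 0.72 with Tshr (adjusted permutation p of r = 0.000643, 0.0106 and 0.014). Without the 2 rats farthest from the median on the first gene, r was 0.94, 0.82 and 0.66 for the first 3 pairs, and 0.75, 0.81 and 0.68 for those of Foxe1. Of these 6 pairs, Pax8 with Tshr then no longer passed (adjusted permutation p = 0.0547). Hhex stood apart, with r = 0.43 to Pax8, 0.43 to Nkx2-1, 0.35 to Foxe1 and 0.51 to Tshr, of which none passed (adjusted permutation p = 0.195, 0.198, 0.315 and 0.108). The mean of the follicular markers showed the same order: r = 0.91 with Nkx2-1, 0.86 with Tshr, 0.83 with Pax8 and 0.75 with Foxe1, which passed, and 0.41 with Hhex, which did not. Without the 2 farthest rats Foxe1 with this mean had r = 0.65 and no longer passed (adjusted 0.0547). Of the other lists on the upper arrays, Hhex with the simple epithelium markers (r = 0.62), Foxe1 with the slow muscle markers (r = -0.62) and Tshr with the lymphoid markers (r = -0.63) passed for r. Without the 2 farthest rats r was 0.39, -0.43 and -0.28, so these rest on those rats. For rho, simple epithelium passed with Pax8 (0.68, adjusted permutation p = 0.0231) and Nkx2-1 (0.65, adjusted 0.0368). So did fast muscle with Foxe1 (-0.66, adjusted 0.0341) and Nkx2-1 (-0.63, adjusted 0.044), and slow muscle with Nkx2-1 (-0.62, adjusted 0.0489). None of these rho values passed without the 2 farthest rats. Tshr with the endothelial markers had r = 0.52 (adjusted 0.102), and without those rats r = 0.70, which passed (adjusted 0.0351).

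On the lower arrays fewer pairs of the genes passed, 2 of 10 against 6 of 10 on the upper arrays, and the difference in r between the clusters was not tested. Pax8 followed the remaining follicular signal with r = 0.90 and rho = 0.78 (adjusted permutation p = 0.0005 and 0.00317), and r was 0.78 without the 2 farthest rats. Nkx2-1 had r = 0.78 with this signal (adjusted permutation p = 0.00383). Its r was 0.51 without the 2 farthest rats, and rho = 0.57 did not pass (adjusted 0.0846). Pax8 and Nkx2-1 had r = 0.82 (adjusted 0.0039), but r was 0.55 without the 2 farthest rats and rho = 0.52 did not pass (adjusted 0.11), so the value rests on those rats. Tshr had r = 0.38 with the follicular markers. It had r = 0.71 and rho = 0.81 with the adipose tissue markers (adjusted permutation p = 0.00762 and 0.00206) and r = 0.73 and rho = 0.75 with the endothelial markers (adjusted 0.00877 and 0.008), and these were 0.84 and 0.71 without the 2 farthest rats. With the fast muscle markers Tshr had r = 0.62 (adjusted 0.0441), which was 0.44 without the 2 farthest rats, and with Nkx2-1 it had r = 0.56 and rho = 0.67 (adjusted 0.0805 and 0.0281). With the erythroid markers Tshr had r = 0.54 and rho = 0.64 (adjusted permutation p = 0.0856 and 0.0369). Without the 2 farthest rats this r was 0.71 and passed (adjusted 0.0351). With the squamous epithelium markers r was -0.45 (adjusted 0.172). Without the 2 farthest rats r was -0.65 and did not pass (adjusted 0.064), while rho = -0.72 did (adjusted 0.0275). These lists moved with or against Tshr, and their part in its level was not tested.

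Hhex had r = 0.68 and rho = 0.68 with Tshr on the lower arrays (adjusted permutation p = 0.0156 and 0.0231) and r = 0.62 with the endothelial markers (adjusted 0.0441), a cell type in which Hhex is known. Without the 2 farthest rats r was 0.62 and 0.58, and neither passed (adjusted permutation p = 0.0747 and 0.138). Foxe1 had r from -0.45 to -0.18 with the other 4 genes there, of which none passed. Without the 2 farthest rats, its r with Nkx2-1 went from -0.41 to -0.72 and passed (adjusted permutation p = 0.0417), while rho did not (adjusted 0.162). Its r was 0.43 with the squamous epithelium markers and -0.72 with the lymphoid markers (adjusted permutation p = 0.183 and 0.0835), neither of which passed, and these were 0.51 and -0.32 without the 2 farthest rats. Of the 7 lymphoid markers, 1 was well above background on at least 18 arrays. For Foxe1 and the fast muscle markers r was -0.51 and did not pass (adjusted permutation p = 0.105), while rho = -0.63 did (adjusted 0.0394). That rho no longer passed without the 2 farthest rats (adjusted 0.213). For Foxe1 and the cartilage markers rho was -0.34 (adjusted 0.317). Without the 2 farthest rats this rho was -0.75 and passed (adjusted 0.0175), while r = -0.64 did not (adjusted 0.064). The source of the Foxe1 transcript on the lower arrays was not tested.

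**Figure D5:**
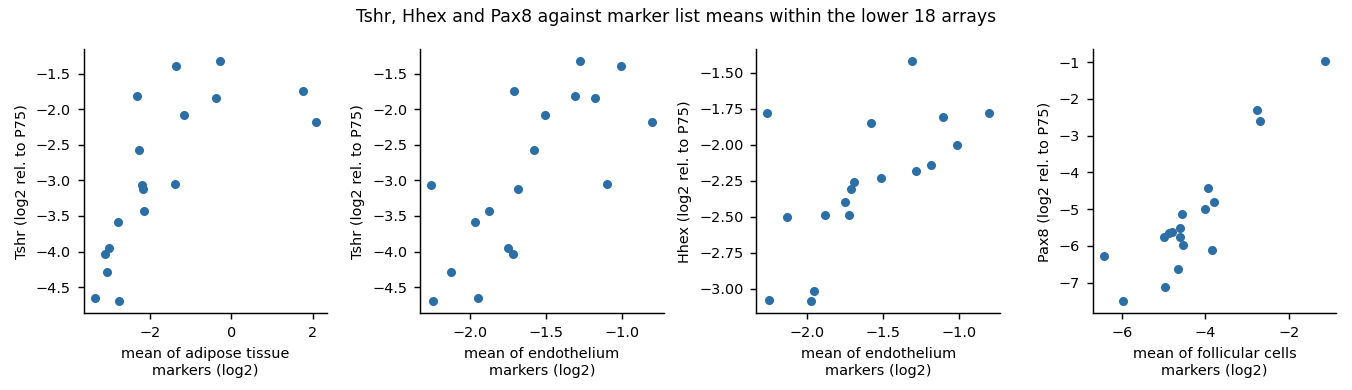
Tshr, Hhex and Pax8 against the mean of a marker list on the 18 lower arrays, both axes as log2 signal relative to the 75th percentile of the array. Tshr rises with the adipose and endothelial means (r = 0.71 and 0.73), Hhex with the endothelial mean (r = 0.62) and Pax8 with the follicular mean (r = 0.90).

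The genes most like each member were ranked by Pearson's r over all 36 arrays among 11760 genes. Since the arrays fall into 2 clusters, such an r mainly reflects the step between them and is given as a description. For Pax8 they were Bex4 and Gng7 (r = 0.99 for both), Klhl14, Iyd and Espn. For Nkx2-1 they were Klhl14 (0.99), Kcnj16, a potassium channel subunit, Iyd, the anion transporter Slc26a7 and Gng7. For Tshr they were Tdrp, the prolactin receptor Prlr, Dclk3, the desaturase Fads1 and Abcg3l1 (r from 0.97 to 0.98), and for Hhex the growth factor Pgf, Xylt2, Abcg3l1, Abcg3 and the phosphate transporter Slc20a1 (all 0.97). Foxe1 had the lowest values, 0.95 to 0.96, with Dock9, Zfp57, Gspt2, Ttc8 and Nap1l3. Klhl14, Iyd and Gng7 were named for both Pax8 and Nkx2-1, and Abcg3l1 for both Hhex and Tshr.

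Within the upper arrays alone, the gene most like Hhex was Irs2, the insulin receptor substrate, with r = 0.93, followed by Egr4 (0.88). For Nkx2-1 the first was the tight junction gene Cldn8 (0.97), for Pax8 Rgs11 (0.96), for Tshr the cathepsin gene Ctsb (0.95) and for Foxe1 the proton pump subunit Atp6v1a (0.94). On the lower arrays Klhl14 was again among the 5 closest to both Pax8 (0.90) and Nkx2-1 (0.95). For Tshr the closest there was Hgd (0.90) and for Foxe1 Nckap1 (0.91). The ranking within each cluster was an addition made once the values were known.

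The target genes of the factors overlap with the marker list that split the arrays. Of the 11, 6 (among them Slc5a5, Iyd, Dio1 and Cdh16) had all 18 upper above all 18 lower arrays, against 3.41% of all probes. For genes in the marker list this separation was largely fixed by the split. Outside that list, Cdh16 had 18 of 18 upper arrays above all lower ones, and Duox1 and Duoxa1 had 0. The median range of the 11 over the rats was 9.07, against 2.85 over all probes. At 9 kBq, 10 of 11 lay below the controls (median log2 ratio -2.85, against 0.07 over all probes), and at 340 kBq 10 of 11 (median -3.20, against 0.31). At 4700 kBq 6 of 11 lay below, with a median of -0.05. None passed the limits in any group. At an unadjusted p under 0.05, Tg, the hormone precursor, was lower at 9 kBq, and Slc26a4, at background level on all but 1 array, was higher at 340 and 1300 kBq. The follicular marker list shares 8 of these genes.

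Genes downstream of the receptor were examined next. For the 16 of 17 TSH receptor signalling genes with a probe, the median range over the rats was 1.98, against 2.85 over all probes. Gnas, the stimulatory G protein subunit, ranged by 1.40. Grk5, a receptor kinase, was the only 1 of the 16 with all upper above all lower arrays, with a range of 3.93. Over all probes the share with this separation was 3.41%. In the opposite direction, Prkar2a, a regulatory subunit of protein kinase A, had 17 and Pde4d, a cAMP phosphodiesterase, had 15 of 18 upper arrays below all lower ones, with ranges of 3.65 and 3.95. Against the controls the median log2 ratio of the list lay between -0.01 and 0.11 in the 8 groups, and 0 passed the limits. At an unadjusted p under 0.05, Creb1 was higher at 9 kBq, Pde8b at 340 kBq, and Prkacb and Adcy3 at 760 kBq. Pde8b was well above background on 1 array.

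Of the partners and developmental genes, 7 of 13 had a probe. Wwtr1, the coactivator TAZ that binds Pax8 and Nkx2-1, and Tbx1 ran opposite to the members, with all 18 upper arrays below all 18 lower ones. Bcl2, an inhibitor of apoptosis, had them all above. Of all probes, 0.671% had them all below and 3.41% all above. None of the 7 passed the limits, and Hoxb3, well above background on 5 arrays, was higher at an unadjusted p under 0.05 at 9, 88, 170, 340 and 1300 kBq. The median log2 ratio of the list was 1.03 at 340 kBq and between -0.21 and 0.70 in the other groups. Among the glycoprotein hormones, Tshb and Cga, the subunits of TSH that the pituitary makes, were well above background on 3 and 2 of the 36 arrays. Of the 4 family relatives with a probe, the gonadal receptors Fshr and Lhcgr, kin of Tshr, were well above background on 16 and 1 arrays and the paired-box genes Pax2 and Pax5 on all 36. None of these 8 genes passed the limits. At an unadjusted p under 0.05, Fshr was lower at 88 kBq and Lhcgr higher at 340 kBq.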

How the data were processed

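Thyroid RNA of 36 rats was measured on Agilent single-colour arrays, 1 array a rat. The deposited scanner files hold the processed intensity of each spot, background-subtracted by the scanner software and not normalized between arrays. The authors also deposited a table of normalized intensity values, used as an alternative, and per the labels their processing used Partek. No depth applies to arrays, and their number limits the precision.

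Control and outlier spots were left out, log2 intensity was taken, the 75th percentile of the array over probes that are not controls was subtracted, and spots of a probe were averaged. Probes were named through RefSeq transcripts (GRCr8 table), which gave 17998 of 30367 probes a symbol. Where a gene had several probes the brightest was used. Groups came from the sample labels. Groups were compared with limma 3.58.1 in R 4.3.3 over all arrays, with Benjamini-Hochberg adjustment within each comparison, and 99 probes without a value on at least 1 array were fitted on the other arrays. Single genes and ratios were compared with exact permutation tests, and relations with 100000 permutations (numpy 2.4.6, Python 3.11.15). Steps were tested on simulated data. Samples of a group are separate rats, and p-values of group comparisons set the difference against the spread between rats. In limma, 1 estimate of this spread per probe was shared by all groups. For relations, rats were permuted across activities within a cluster.

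Alternatives were quantile normalization, median centring, normexp (offset 50, on median spot intensities because the files hold no mean), the authors' table, a filter on dim probes, the slide or rat number as a block, only the 2 groups compared, trend and robust options, array weights, wider adjustment, other thresholds, other probes and each rat left out. The 5 genes of the set, the lists and the motifs were chosen with earlier results of these data known. Values of 1 gene of the lists are not reported here. The named genes are the members, genes of the lists and, for each member, the 5 most like it.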

Additional observations from a re-analysis of the deposited data

Results flagged for a closer look

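In a group of 4 rats, a rat was noted where its gap to the nearest other took up more of the group's range than Dixon's critical value allows. This held in 11 of 63 sets of 1 probe and 1 group, and chance gives about 5% of sets, though here the probes share rats. At 9 kBq, rat 2 was the highest, with a share of the range of 0.928 for Pax8, 0.869 and 0.931 for the 2 probes of Nkx2-1 and 0.87 for Hhex. At 340 kBq, rat 4 was the highest for Pax8 (0.882) and for the dimmer probe of Nkx2-1 (0.999). At 4700 kBq, rat 3 was the lowest, with 0.9 for Pax8, 0.901 and 0.876 for the probes of Nkx2-1, 0.83 for Hhex and 0.901 for the dimmer probe of Tshr. These 3 rats are those whose follicular cell markers were on the other side of the gap from the rest of their group, as was rat 3 of the controls, which no probe singled out. Foxe1 gave no such rat in any group. The cause was not tested.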

How the results depend on the processing

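The count of member probes past the limits was 0 under every alternative run, and the smallest adjusted p of a member in limma was 0.0139. That value came with array weights, where 6 member probes at 9 kBq had adjusted p from 0.0139 to 0.0184. The weights were lowest for rat 4 at 340 kBq (0.252) and rat 2 at 9 kBq (0.299), and the estimation stopped before convergence. Without rat 3 of the controls, 6 of 7 probes at 9 kBq and 3 at 340 kBq had an unadjusted p under 0.05 in limma. Without rat 2 at 9 kBq this held for 5 probes there, and without rat 4 at 340 kBq for 4.

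Of 144 same-numbered pairs of rats, 57 had deviations correlated above 0.1 (median -0.03). Pairs with different numbers were not compared, so this cannot show whether the rat numbers pair the samples. With the replicate block, 0 member probes passed and the smallest adjusted p in limma was 0.445. Of the 40 ratios to the controls (brightest probe), 35 were negative, and 24 on the upper arrays only. On these the count of list genes past the limits went from 0 to 5 (Pax2, Hoxb3, Lhcgr, Slc26a4 and Pde8b at 340 kBq), but there the group is rat 4 alone, whose array had the highest share of probes above background, and Lhcgr, Slc26a4 and Pde8b were well above background on 1 of 36 arrays, so nothing is drawn from it. No ratio between members passed under any alternative. Of the 150 relations, 21 passed, 20 with quantile normalization and 14 without the 2 farthest rats. Relations of deviations from group means were not run, because the groups hold 1 to 3 rats of a cluster, nor were those within slides.

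Of 496 single values under alternatives that keep all rats or the upper arrays, 471 kept their direction. With the slide as a block the sign turned for Pax8 (0.20) and Nkx2-1 (0.12) at 88 kBq, Foxe1 at 260 kBq (0.44) and Hhex at 4700 kBq (0.18). With array weights it turned for Foxe1 at 760 kBq (-1.11), Hhex at 4700 kBq (0.11) and Tshr at 4700 kBq (-0.056). At 4700 kBq it turned for Pax8 with normexp (-0.012), Hhex with median centring (0.032) and Nkx2-1 at its other probe (-0.014). On the upper arrays only it turned for Pax8 at 260, 760 and 4700 kBq (0.083, 0.41 and -0.15), for Nkx2-1 at 88, 260, 760 and 1300 kBq (0.19, 0.42, 0.51 and 0.13), for Foxe1 at 88, 260 and 1300 kBq (0.40, 0.52 and 0.13), for Hhex at 88 kBq (0.26) and for Tshr at 88, 260, 760 and 4700 kBq (0.19, 0.37, 0.41 and -0.062). The cause was not tested.

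Leaving out 1 rat at a time turned the sign in 41 of 320 values. The range was -3.58 to 0.12 for Pax8 at 88 kBq, -3.57 to 0.29 at 260, -2.99 to 0.95 at 760 and -1.97 to 1.86 at 4700 kBq. For Nkx2-1 it was -3.47 to 0.26 at 88, -3.05 to 0.60 at 260, -2.90 to 1.0 at 760 and -1.57 to 2.10 at 4700 kBq. For Foxe1 it was -1.15 to 0.49 at 88, -0.76 to 0.25 at 170, -0.87 to 0.28 at 260, -0.41 to 0.74 at 760, -0.99 to 0.087 at 1300 and -0.075 to 1.12 at 4700 kBq. Hhex ranged from -1.43 to 1.29 at 4700 kBq, and Tshr from -2.63 to 0.10 at 170, -2.09 to 0.27 at 260, -2.18 to 0.27 at 760 and -1.11 to 1.26 at 4700 kBq. With 4 rats a group and this spread, differences below several log2 units could not be detected. Signals not well above background, as for Pax8 in 3 rats, have no exact level.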
